A study of Homo sapiens with 54 samples.

Results

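The genes described here make cholesterol, sense its level or move it within and out of the cell. The list held 28 genes, and 26 of them were measured, out of 18417 genes with a named probe set. A gene was represented by the probe set with the highest mean over all arrays. FDFT1, squalene synthase, had no probe set with a single gene symbol, and the probe set of HSD17B7, a ketosterol reductase, carried several symbols, so neither was analysed here. ACAT2, a cytosolic thiolase, fell in the 40% of genes with the lowest mean and was left out of the tests, which leaves 25 tested members. Membership was decided by gene name, but the list was chosen with earlier results of these data known.

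Cholesterol is built from acetyl-CoA through the mevalonate pathway, which ends in farnesyl diphosphate, and then through squalene and lanosterol to the final sterol reductases. The transcription factors SREBP-1 and SREBP-2, made from SREBF1 and SREBF2, turn on these genes. When sterols are scarce, the escort protein SCAP carries SREBP from the endoplasmic reticulum to the Golgi for cleavage, and when sterols are plentiful the INSIG proteins hold SCAP back. NPC1 and NPC2 release cholesterol from lysosomes, STARD4 carries it through the cytosol, and ABCA1 pumps it out of the cell.

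The cells were H4, a human line with a mixed glial and neuronal character. Cells received 1 of 9 small RNAs by transfection, and 48 h passed before harvest. RNA was then taken either from the whole lysate or from material pulled down with the anti-Argonaute antibody 2A8, which retains messages bound by the silencing complex (the IP). Each of the 18 groups (9 RNAs in 2 fractions) had 3 biological replicates, so 54 Human Gene 1.0 ST arrays were analysed.

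Of the natural microRNAs, miR-107 and miR-103 as well as miR-195 and miR-16 belong to the gene group named after miR-15 and miR-107, and miR-320 does not. The molecule called miR-15b in the sample titles is miR-15b* in the design text, the name used here. A commercial negative control RNA and 2 altered forms, called miR-107-mut1 and miR-107-mut2, are described as non-physiological. All comparisons with the control used the same 3 control arrays of a fraction, so their results are not independent of each other, and a control mean that is high or low by chance shifts all 8 of them.

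The mature sequences below show how the 4 members of the gene group divide by seed, the bases 2 to 8 in capitals that pair with a target message. They come from RefSeq (GRCh38.p14) and are given 5′ to 3′.
miR-103: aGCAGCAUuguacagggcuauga
miR-107: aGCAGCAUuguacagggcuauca
miR-16: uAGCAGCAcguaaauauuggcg
miR-195: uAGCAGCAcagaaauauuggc
miR-15b*: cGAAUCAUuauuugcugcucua

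miR-103 and miR-107 carry the same seed and differ by the single substitution G22C (positions counted from 1 at the 5′ end, miR-103 base first). miR-16 and miR-195 share another seed, AGCAGCA, letters that miR-103 and miR-107 carry 1 base nearer the 5′ end, and differ within their common length by G10A and U11G (miR-16 base first). miR-15b*, read here as the 3′ strand miR-15b-3p, has an unrelated seed. miR-107 is encoded at chr10:89592756-89592778 on the minus strand. The miR-103 sequence is encoded at chr5:168560904-168560926 (minus strand) and at chr20:3917541-3917563 (plus strand). The miR-195 sequence lies at chr17:7017667-7017687 on the minus strand.

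Array means over the tested genes were 9.02 to 9.08 (log2 intensity) in the lysates and 4.21 to 5.05 in the IP, so levels are not compared between them except where a common scale was made. Replicates correlated at 0.883 to 0.995 in the lysates and at 0.767 to 0.967 in the IP. The second replicates of the miR-103, miR-16 and miR-15b* lysates and the first miR-15b* IP stood apart from the other arrays of their fraction. Some results that change without them are marked, but not all, so an unmarked result is not thereby stable. In the lysates VIM, CD44, SOX2, MAP2 and ENO2 lay above the 40th percentile of all genes (7.13), while GFAP, S100B, NES, NEFM, NEFL and SYP lay below it, so the glial marker GFAP and the neurofilament genes gave no clear signal in this glioneuronal line. Of 11 further measured markers, most of them of other cell types, CD68 and the neuronal marker RBFOX3 lay above that level. PTPRC, CD3E, EPCAM, CDH1, KRT5, PECAM1, CDH5, ALB and the glial marker MOG lay below it. All 26 members were above the same percentile in the lysates, and 20 of 26 were above the corresponding IP level of 3.19.

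In the lysates the cholesterol exporters ABCA1 and NPC1 rose and DHCR7 and SREBF2 fell after several of the RNAs. Of the 6 mevalonate and 9 sterol-branch enzymes tested, only DHCR7 and LSS were called in a comparison with the control. A change is called here at an adjusted p under 0.05 in a limma fit of all 11050 tested genes, with Benjamini-Hochberg adjustment. With miR-103, 2 of 25 members were called higher, beside 8.37% of all tested genes, and 1 lower, beside 8.88% (3 in all, 12%, beside 17.2%). With miR-107, 2 were higher, beside 6.51% of all genes, and 2 lower, beside 8.35% (16% in all, beside 14.9%).

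With miR-16, 2 members were higher (8%), beside 9.56% of all genes higher and 17% in either direction. With miR-195, 2 were higher, beside 6.82% of all genes, and 2 lower, beside 7.22% (16% in all, beside 14%). With miR-320, 1 member was higher (4%), beside 1.46% of all genes higher and 2.96% in either direction. With miR-15b*, 1 was higher (4%), beside 3.5% higher and 7.54% in either direction. With miR-107-mut1, 1 was higher, beside 3.33% of all genes, and 4 lower, beside 5.44% (20% in all, beside 8.77%). With miR-107-mut2, 2 were higher, beside 6.23%, and 1 lower, beside 7.58% (12% in all, beside 13.8%). Apart from miR-107-mut1, the shares of members were near or below those of all genes. The counts depended on the arrays used, for members and for all genes alike. Without the arrays that stand apart, 8 of 25 members were called with miR-103, beside 24.1% of all genes, 7 with miR-107, beside 27.2%, 8 with miR-107-mut1, beside 19.2%, and 6 with miR-107-mut2, beside 31.3%.

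The median log2 change of the 25 members ran from -0.25 with miR-107-mut1 to 0.11 with miR-195, and the median of all genes from 0.00 to 0.05. With miR-107-mut1, 4 of 25 members lay above 0, beside 49.9% of all genes, and with miR-320 5 of 25, beside 51%. With the other RNAs 10 to 16 of 25 did, beside 51.4% to 56.7% of all genes.

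**Figure D1:**
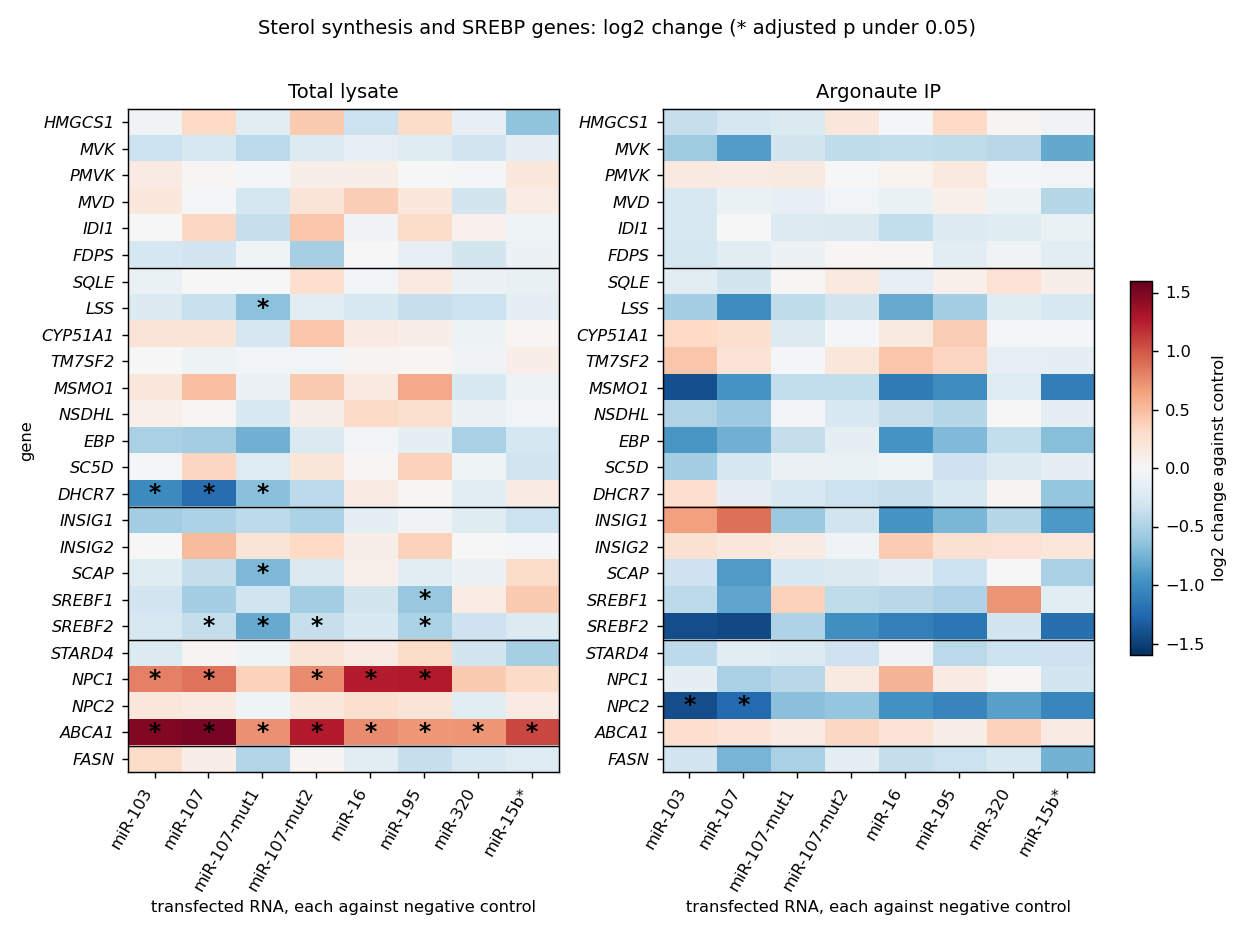
Log2 change of each tested member (rows, ordered by role and divided by lines) after each of 8 transfected RNAs (columns) against the negative control, in total lysate (left) and Argonaute IP (right); colour gives the change and a star marks an adjusted p under 0.05. The ABCA1 row carries a star in all 8 lysate columns, NPC1 in 5 and SREBF2 in 4, while in the IP only NPC2 with miR-103 and miR-107 carries one.

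ABCA1, the pump that exports cholesterol to apolipoprotein acceptors, was the member that changed most. Its lysate level was 7.98, 7.67 and 7.57 in the control cells, 9.37, 9.12 and 9.16 with miR-103, and 9.54, 9.16 and 9.08 with miR-107. It was 9.23, 8.98 and 8.80 with miR-107-mut2, and 8.87, 8.86 and 8.70 with miR-15b*. The lower levels were 8.79, 8.31 and 8.30 with miR-107-mut1, 8.53, 8.60 and 8.35 with miR-16, 8.60, 8.52 and 8.19 with miR-195, and 8.53, 8.50 and 8.32 with miR-320. All 24 arrays of transfected microRNAs and altered molecules, from 8.19 to 9.54, lay above the 3 control arrays, as held for 1.42% of all tested genes.

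The ABCA1 change was 1.48 ± 0.16 (log2, SE) with miR-103 (2.79-fold, adjusted p = 5.3e-07, limma) and 1.52 with miR-107 (2.88-fold, adjusted p = 3.0e-07). It was 1.27 with miR-107-mut2, 1.07 with miR-15b*, 0.76 with miR-16, 0.73 with miR-107-mut1, 0.71 with miR-320 and 0.70 with miR-195, with adjusted p from 5.0e-06 to 0.012. ABCA1 was therefore called higher in all 8 comparisons, as were 0.48% of all tested genes. These 8 results rest on the same 3 control arrays. With the mean of the control, miR-320 and miR-15b* as the baseline, ABCA1 was 0.89 higher with miR-103, 0.93 with miR-107 and 0.67 with miR-107-mut2, while miR-16 (0.16), miR-195 (0.11) and miR-107-mut1 (0.14) were no longer called. The miR-320 call ended (adjusted p up to 0.081) without the first miR-320 lysate or without the second or the third control lysate.

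NPC1, the lysosomal membrane protein that exports cholesterol, rose after 5 of the 8 RNAs, with its highest levels after miR-16 and miR-195. Its lysate level was 10.22, 9.84 and 9.84 in the control cells, 11.36, 11.37 and 10.93 with miR-16, and 11.25, 11.37 and 11.07 with miR-195. It was 10.80, 10.84 and 10.69 with miR-103, 10.96, 10.85 and 10.69 with miR-107, and 10.87, 10.73 and 10.56 with miR-107-mut2. In these 5 groups no array overlapped the controls. NPC1 was 1.26 ± 0.18 higher with miR-16 (2.39-fold, adjusted p = 3.8e-05, limma), 1.26 with miR-195, 0.87 with miR-107, 0.81 with miR-103 and 0.75 with miR-107-mut2. Of all tested genes, 3.95% were called higher in at least 5 of the 8 comparisons and 5.16% in at least 4.

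With the remaining 3 RNAs NPC1 was not called. The levels were 10.73, 9.99 and 10.29 with miR-107-mut1, 10.83, 10.09 and 10.24 with miR-320, and 10.37, 10.30 and 10.16 with miR-15b*, and each of these groups overlapped the control arrays. NPC2, the soluble partner of NPC1 in the lysosome, changed by -0.17 to 0.25 in the lysates and STARD4 by -0.54 to 0.29, and neither was called after any RNA. The closest was NPC2 with miR-16, at 0.25 ± 0.09 and an adjusted p of 0.052. With the replicate number as a block, NPC2 passed there (adjusted p = 0.018), and STARD4 was lower by 0.54 with miR-15b* (adjusted p = 0.035).

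**Figure D2:**
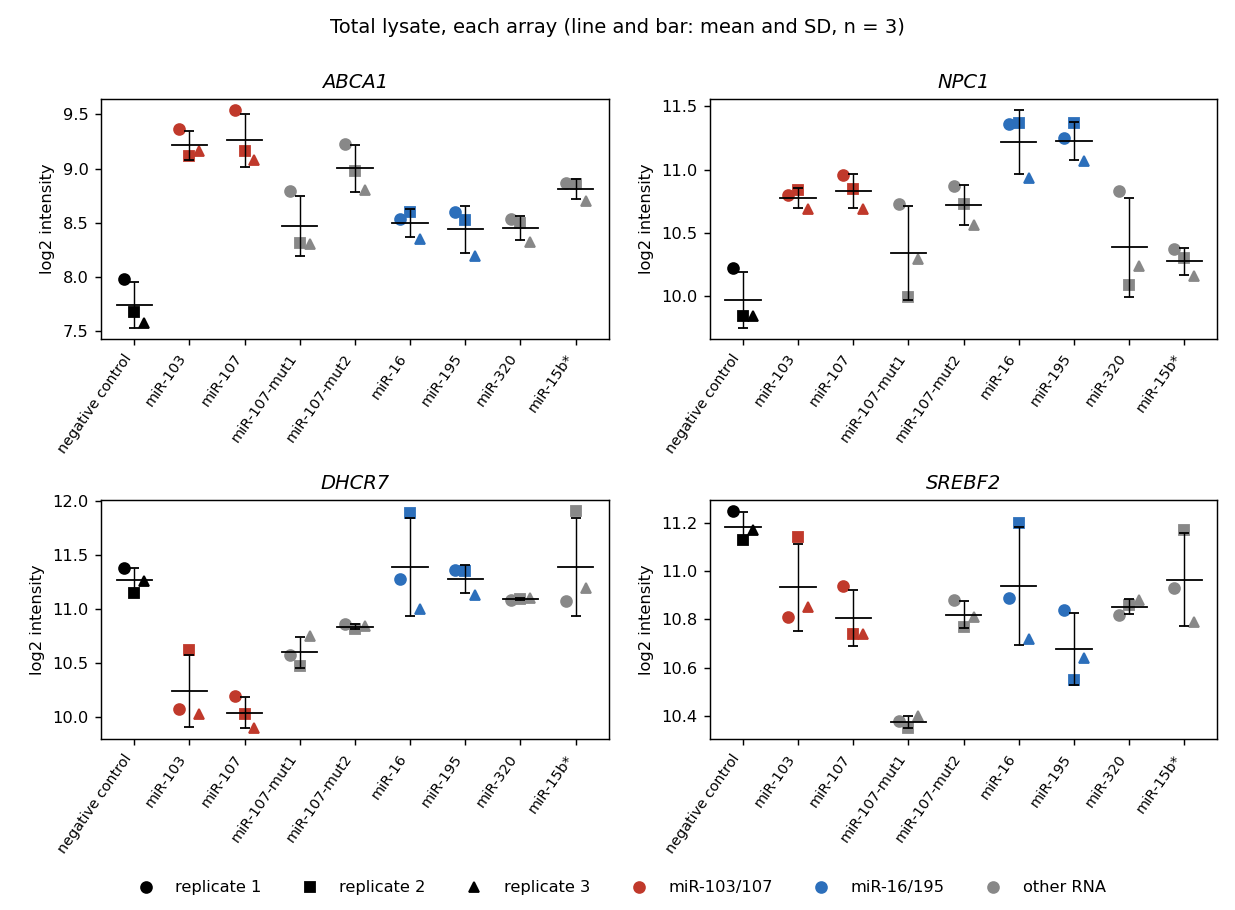
Log2 intensity in total lysate of ABCA1, NPC1, DHCR7 and SREBF2 on every array, by transfected RNA; symbols mark the replicate number, and line and bar give mean and SD of 3 replicates. The ABCA1 control points, 7.57 to 7.98, lie below all other points, and DHCR7 with miR-103 and miR-107 (9.90 to 10.62) lies below miR-16 and miR-195 (11.00 to 11.89).

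DHCR7, the reductase of the last step to cholesterol, fell with miR-103 and miR-107 and not with miR-16 or miR-195. It read 11.38, 11.15 and 11.26 in the control lysates, 10.07, 10.62 and 10.03 with miR-103, and 10.19, 10.03 and 9.90 with miR-107. With miR-16 it read 11.28, 11.89 and 11.00, and with miR-195 11.36, 11.35 and 11.13, which overlap the controls. DHCR7 fell by 1.02 ± 0.20 on the log2 scale with miR-103 (2.03-fold, adjusted p = 9.0e-04, limma) and by 1.22 with miR-107 (2.33-fold, adjusted p = 1.3e-04).

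The altered molecules lay in between. DHCR7 was 10.57, 10.47 and 10.75 with miR-107-mut1, a fall by 0.66 (adjusted p = 0.041) that was lost, at adjusted p of 0.064 to 0.14, on leaving out any 1 of the 6 arrays, and without the filter on low genes (adjusted p = 0.054). With miR-107-mut2 it was 10.86, 10.81 and 10.84, all below the controls, with a difference of -0.42 that was not called (adjusted p = 0.17). Without the arrays that stand apart that difference was called (adjusted p = 0.0025). The DHCR7 level was 11.08, 11.09 and 11.10 with miR-320 and 11.07, 11.91 and 11.19 with miR-15b*, neither of them called.

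Of the 8 other sterol-branch enzymes tested, only LSS, lanosterol synthase, was called in any lysate comparison with control. LSS read 10.31, 10.34 and 10.35 in the control lysates and 9.36, 9.87 and 9.82 with miR-107-mut1, a fall by 0.65 ± 0.19 (adjusted p = 0.035, limma). Leaving out either the first or the third miR-107-mut1 lysate, or any control lysate, ended that call (adjusted p up to 0.19), as did the mean of 3 controls (adjusted p = 0.052). EBP, the sterol isomerase, differed by -0.77 to -0.04 over the 8 RNAs, without a call. With the replicate number as a block, EBP was called lower with miR-103 (adjusted p = 0.019), miR-107 (adjusted p = 0.012) and miR-107-mut1 (adjusted p = 0.0016).

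The largest uncalled rise among these enzymes was that of MSMO1, a methylsterol oxidase, with miR-195. It read 10.73, 11.26 and 11.34 in the control lysates and 11.28, 11.97 and 11.90 with miR-195, a difference of 0.60 ± 0.28 with an adjusted p of 0.19. CYP51A1, the lanosterol demethylase, differed by -0.27 to 0.44, SC5D, the C5 desaturase, by -0.31 to 0.37, and NSDHL, which acts in C4 demethylation, by -0.25 to 0.31. SQLE, squalene epoxidase, differed by -0.12 to 0.27 and TM7SF2, a sterol C14 reductase, by -0.08 to 0.11. Of the 24 other lysate arrays, 21 lay below the lowest control array for LSS, whose controls spanned 10.31 to 10.35, and 17 for EBP, whose controls spanned 9.60 to 9.89. Above the highest control lay 3 for LSS and 2 for EBP. For NSDHL 10 lay below the controls and 13 above, and for TM7SF2 10 lay below and 10 above. The share of all genes with such counts is not given here, so the counts do not mark a gene as lowered. The median change of the 9 tested sterol-branch genes was from -0.25 with miR-107-mut1 to 0.11 with miR-195. With miR-320 none of the 9 lay above 0, beside 51% of all genes, and with miR-107-mut1 1 of 9 did, beside 49.9%. With the other RNAs 3 to 7 of 9 did. Without the arrays that stand apart LSS was also called lower with miR-16 (adjusted p = 0.030) and miR-195 (adjusted p = 0.049).

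No enzyme of the mevalonate arm was called in a lysate comparison with control in the main fit. HMGCS1, which makes HMG-CoA, read 8.31, 9.60 and 9.31 in the control lysates. It read 8.20, 8.08 and 9.0 with miR-15b*, a difference of -0.65 ± 0.45 (adjusted p = 0.37, limma), and 8.57, 7.95 and 9.66 with miR-16. Both groups overlapped the control arrays.

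MVK, mevalonate kinase, was lower than the control mean with all 8 RNAs (-0.43 to -0.13), and FDPS, farnesyl diphosphate synthase, ranged from -0.53 with miR-107-mut2 to 0.01 with miR-16. Of the 24 other lysate arrays, 20 lay below the lowest control array for MVK and 18 for FDPS, while 2 and 4 lay above the highest. The share of all genes with such counts is not given here. PMVK, the next kinase, differed by at most 0.17. MVD, the decarboxylase, ranged from -0.29 to 0.40 and IDI1, the isomerase, from -0.36 to 0.44. Over the 6 tested mevalonate enzymes the median change was from -0.23 with miR-107-mut1 to 0.15 with miR-107-mut2. ACAT2, below the filter on low genes, was lower by 0.70 with miR-103 in a fit of all 18417 genes (adjusted p = 0.051). FDPS was called lower with miR-107-mut2 under the replicate block (adjusted p = 0.0098) and without the arrays that stand apart (adjusted p = 0.0044). Without those arrays MVK was called lower with miR-103 (adjusted p = 0.011) and miR-107-mut1 (adjusted p = 0.016), and FDPS with miR-103 (adjusted p = 0.014).

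Among the regulators, SREBF2 was the member lowered most often. It read 11.25, 11.13 and 11.17 in the control lysates and 10.38, 10.35 and 10.40 with miR-107-mut1. It read 10.94, 10.74 and 10.74 with miR-107, 10.88, 10.77 and 10.81 with miR-107-mut2, and 10.84, 10.55 and 10.64 with miR-195. None of these 4 groups overlapped the controls, and the 3 miR-107-mut1 arrays lay below every other lysate.

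SREBF2 fell by 0.81 ± 0.12 with miR-107-mut1 (1.75-fold, adjusted p = 1.1e-04, limma), by 0.51 with miR-195 (adjusted p = 0.0050), by 0.38 with miR-107 (adjusted p = 0.036) and by 0.37 with miR-107-mut2 (adjusted p = 0.046). Being called lower in at least 4 of the 8 comparisons held for 5.57% of all tested genes. With the mean of 3 controls SREBF2 was lower by 0.19 with miR-107 (adjusted p = 0.22) and by 0.18 with miR-107-mut2 (adjusted p = 0.24), and those calls ended, while miR-195 and miR-107-mut1 stayed called. Leaving out 1 array ended the miR-107 call in 5 of 6 cases, the exception being the first miR-107 lysate, and the miR-107-mut2 call in 6 of 6, and the latter was also lost without the filter on low genes (adjusted p = 0.053). With the other 4 RNAs SREBF2 lay 0.22 to 0.33 below the control without a call, and without the arrays that stand apart it was called lower with each of them (adjusted p = 0.0040 to 0.021).

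SREBF1 read 10.34, 10.06 and 10.20 in the control lysates and 9.92, 9.37 and 9.49 with miR-195. It fell by 0.61 ± 0.19 there (1.53-fold, adjusted p = 0.028, limma), a call that ended without the second or the third miR-195 lysate or the first or the third control lysate. SREBF1 lay just outside the threshold with miR-107 (-0.54, adjusted p = 0.054) and miR-107-mut2 (-0.55, adjusted p = 0.051), and the block brought both inside it (adjusted p = 0.048 and 0.043). With miR-15b* it differed upward, by 0.42 with an adjusted p of 0.18. With the mean of 3 controls, which takes in miR-15b*, SREBF1 was called lower with all 6 RNAs set against it, by up to 0.79 with miR-195.

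SCAP, the SREBP escort, read 10.47, 10.38 and 10.36 in the control lysates and 9.81, 9.65 and 9.59 with miR-107-mut1. Its fall there was 0.72 ± 0.17 (1.65-fold, adjusted p = 0.0087, limma), and it was called after no other RNA, although without the arrays that stand apart it was also called lower with miR-103 (adjusted p = 0.011) and miR-107 (adjusted p = 0.0028). INSIG1, an endoplasmic reticulum anchor of SCAP and itself an SREBP target, read 10.47, 11.12 and 11.16 in the control lysates, 10.00, 10.57 and 10.52 with miR-103, and 10.04, 10.64 and 10.56 with miR-107. INSIG1 was not called, with differences of -0.56 and -0.51, but with the replicate number as a block both were called lower (adjusted p = 0.0071 and 0.014), as was miR-107-mut2 (adjusted p = 0.016). INSIG2, its relative, ranged from -0.01 to 0.51 without a call, and without the arrays that stand apart it was called higher with miR-107 (adjusted p = 0.011).

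FASN, fatty acid synthase and the only listed gene of the fatty acid arm, differed from the control lysates by -0.46 to 0.29 without a call. In bulk lysates a smaller share of cells with a message and less of it per cell cannot be told apart.

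The promoters of the members were searched for the sterol regulatory element TCACNCCAC, the site where SREBP binds, in windows from 250 bases before to 50 bases after the annotated start, on both strands. Of 24 members with a RefSeq promoter entry, 1 held it, SREBF2. That was 1 of the members' 31 promoter windows (3.23%), beside 1.13% of all 35116 promoters. ACAT2, FDFT1, SQLE and FASN had no entry and were not searched. The stretch of SREBF2 is shown because that gene was the regulator lowered most often: it lies at chr22:41832952-41833000 on the plus strand (GRCh38.p14), the motif begins 133 bases before the start, and the capitals mark it.
SREBF2: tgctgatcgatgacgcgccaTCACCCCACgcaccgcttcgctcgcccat

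The CCAAT box, bound by the SREBP partner NF-Y, was found for 17 of 24 members. It lay in 61.3% of the members' 31 promoter windows and in 34.6% of all promoters, as a description without a test. A match shows letters only, and the absence of one says nothing on SREBP binding elsewhere.

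Set directly against each other, the miR-103 and miR-107 and miR-16 and miR-195 lysates differed in 3 of 25 members (12%, beside 10% of all genes), in a contrast that does not use the control: 1 was higher with miR-103 and miR-107, beside 3.57% of all genes, and 2 lower, beside 6.47%. DHCR7 was lower with miR-103 and miR-107 by 1.20 ± 0.14 (2.29-fold, adjusted p = 6.2e-06, limma), and its 6 arrays, 9.90 to 10.62, did not overlap the 6 of miR-16 and miR-195, 11.00 to 11.89. ABCA1 was higher with miR-103 and miR-107 by 0.77 ± 0.11 (1.71-fold, adjusted p = 4.8e-05), again without overlap. NPC1 was lower with miR-103 and miR-107 by 0.42 ± 0.13 (adjusted p = 0.040), but the arrays overlapped, the call ended on leaving out any of 8 of the 12 arrays (2 from each RNA), and the adjusted p rose to 0.052 without the filter on low genes and to 0.071 when the arrays that stand apart were left out. The block called 7 members here instead of 3, beside 15.7% of all genes under the block, among them INSIG1 (-0.43, adjusted p = 0.0055), EBP (-0.44, adjusted p = 0.0084), NSDHL (-0.24, adjusted p = 0.013) and FASN (0.46, adjusted p = 0.032).

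miR-107 and its altered form miR-107-mut1 differed in 2 of 25 members in the lysates (8%, beside 13.5% of all genes), both higher with miR-107, beside 6.96% of all genes. ABCA1 was 0.79 ± 0.16 higher with miR-107 (1.73-fold, adjusted p = 9.1e-04, limma) and SREBF2 0.43 ± 0.12 higher (1.35-fold, adjusted p = 0.017), and for both genes the 2 groups of arrays did not overlap. The SREBF2 difference was no longer called without the first miR-107 lysate or the second miR-107-mut1 lysate. DHCR7 was 0.56 ± 0.20 lower with miR-107, with an adjusted p of 0.074 and a 95% interval of -0.97 to -0.14. Under the block 8 of 25 members were called, 7 of them higher with miR-107, beside 19.2% of all genes called under the block.

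Between miR-107 and miR-107-mut2 no member was called in the lysates, and 0.0814% of all genes were. The only member at an unadjusted p under 0.05 (4%, beside 4.21% of all genes) was DHCR7, lower with miR-107 by 0.79 ± 0.20 with non-overlapping arrays (unadjusted p = 6.9e-04, adjusted p = 0.29, limma). It was called without the arrays that stand apart (adjusted p = 4.9e-04), with array quality weights and in a fit of only the arrays compared. It was not called under the replicate block, after cyclic loess, without the filter on low genes or with the filter of the lowest 60%. Nor was it called with trend and robust settings or the mean of all probe sets. ABCA1 differed by 0.25 between miR-107 and miR-107-mut2, with a 95% interval of -0.07 to 0.58, and SREBF2 by -0.01, with an interval of -0.26 to 0.24.

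The Argonaute IP gave few calls for these genes. NPC2 was lower after miR-103 and miR-107 and was the only member called against the control, 1 of 25 (4%) in each, beside 2.03% of all genes with miR-103 (1.79% lower) and 3.83% with miR-107 (3.61% lower). NPC2 read 8.12, 7.59 and 8.07 in the control IP, 7.04, 6.21 and 6.28 with miR-103, and 6.92, 6.63 and 6.50 with miR-107. Neither group overlapped the controls, and 22 of the 24 other IP arrays lay below the lowest control. The share of all genes with such a count is not given here.

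NPC2 fell by 1.42 ± 0.35 with miR-103 (2.67-fold, adjusted p = 0.035, limma) and by 1.25 ± 0.35 with miR-107 (2.37-fold, adjusted p = 0.048). With the other 6 RNAs it lay 0.62 to 1.06 below the control without a call. The median of all genes in the IP was itself -0.19 with miR-107 and -0.09 with miR-103, and after cyclic loess within the IP the NPC2 differences were -0.93 (adjusted p = 0.069) and -0.51 (adjusted p = 0.27). After cyclic loess 2 of 25 members were called in the IP with miR-103, beside 3.99% of all genes, and 1 with miR-107, beside 4.71%, with NPC2 not among them. In the main fit the miR-103 call of NPC2 ended without the second or the third miR-103 array or the first or the third control array (adjusted p up to 0.18). Its miR-107 call ended without any 1 of the 6 arrays (adjusted p up to 0.22). With the mean of 3 controls NPC2 was lower by 0.78 with miR-103 and by 0.61 with miR-107, and neither was called (adjusted p = 0.13 and 0.18), nor was either with trend and robust settings (adjusted p = 0.052 and 0.065), and the miR-107 call was also lost without the filter on low genes (adjusted p = 0.059).

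No member was called in the IP with the other 6 RNAs, beside 1.26% of all genes with miR-16, 0.67% with miR-195, 2.21% with miR-320, 0.217% with miR-15b*, 0.742% with miR-107-mut1 and 0.344% with miR-107-mut2. At an unadjusted p under 0.05 in limma there were 4 members with miR-16 (16%, beside 12.7% of all genes), 3 with miR-195 (12%, beside 11%), 2 with miR-320 (8%, beside 7.28%), 3 with miR-15b* (12%, beside 13.4%) and 0 with each altered molecule (beside 4.93% for miR-107-mut1 and 6.57% for miR-107-mut2).

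**Figure D3:**
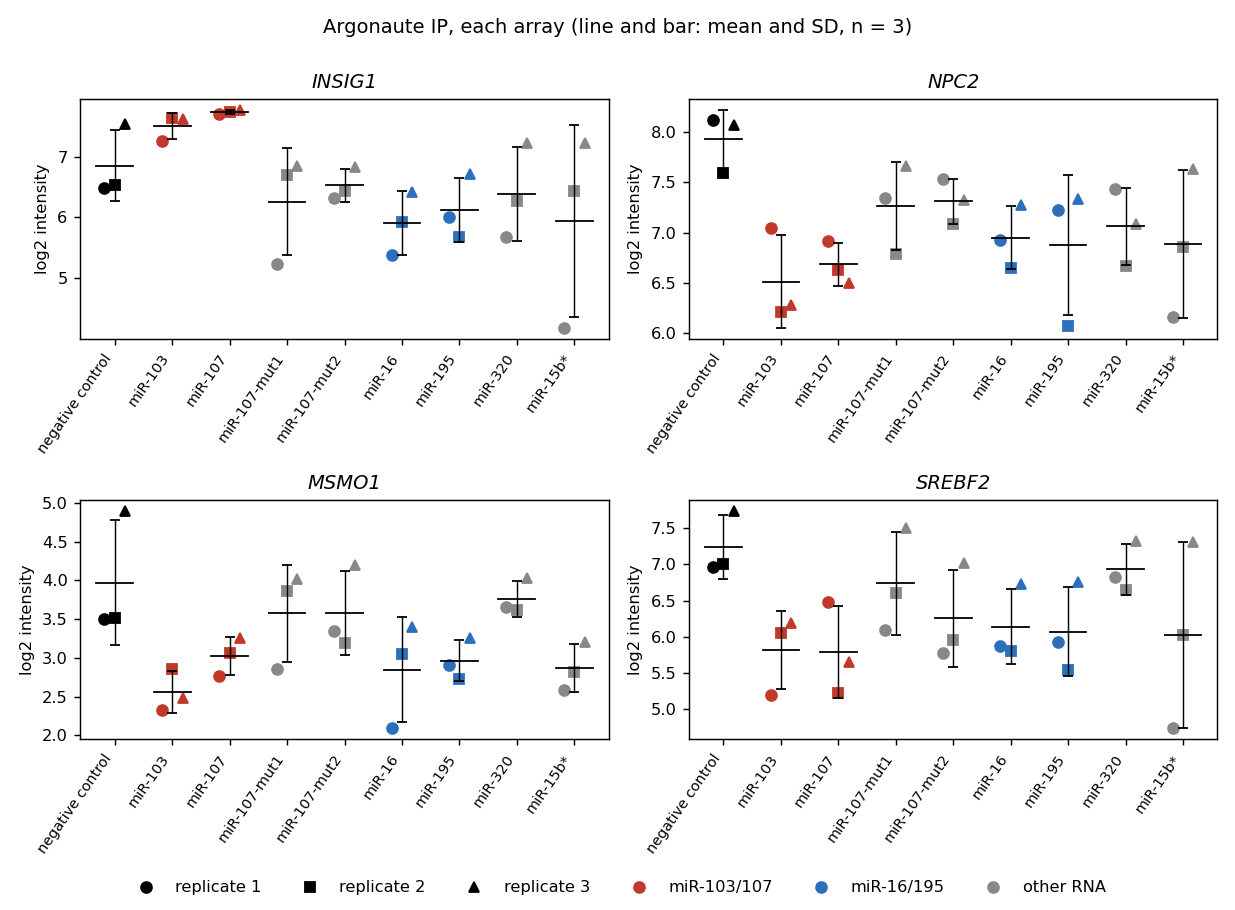
Log2 intensity in the Argonaute IP of INSIG1, NPC2, MSMO1 and SREBF2 on every array, by transfected RNA; symbols mark the replicate number, and line and bar give mean and SD of 3 replicates. INSIG1 with miR-103 and miR-107 (7.26 to 7.77) lies above miR-16 and miR-195 (5.38 to 6.71), and NPC2 with either of them (6.21 to 7.04) lies below the control (7.59 to 8.12).

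INSIG1 parted the 2 seed groups in the IP without passing the test. It read 7.26, 7.64 and 7.63 with miR-103 and 7.71, 7.74 and 7.77 with miR-107. It read 5.38, 5.93 and 6.42 with miR-16, 6.0, 5.68 and 6.71 with miR-195, and 6.49, 6.54 and 7.54 in the control. The 6 arrays of miR-103 and miR-107 lay above all 6 of miR-16 and miR-195.

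The INSIG1 difference was 1.61 ± 0.39 (3.05-fold, 95% interval 0.80 to 2.42), with an adjusted p of 0.090 in limma, so it missed the threshold. It was called with the replicate number as a block (adjusted p = 0.0020), after cyclic loess (1.76, adjusted p = 1.8e-05), with array quality weights (adjusted p = 4.5e-04), in a fit of only the arrays compared (adjusted p = 0.0017) and without the arrays that stand apart (adjusted p = 0.0053). It was not called without the filter on low genes, with the filter of the lowest 60%, with trend and robust settings or with the mean of all probe sets. Against the control INSIG1 lay 0.66 higher with miR-103 and 0.89 higher with miR-107, neither called (adjusted p = 0.55 and 0.34). In the lysates INSIG1 lay below the control with both, as given above.

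In that contrast of miR-103 and miR-107 with miR-16 and miR-195 in the IP, no member was called, beside 0.38% of all genes, and 3 had an unadjusted p under 0.05 (12%, beside 6.35% of all genes). Between miR-107 and miR-107-mut1 no member was called in the IP (5.05% of all genes were), 2 had an unadjusted p under 0.05 (8%, beside 23.8% of all genes), and INSIG1 lay 1.48 higher with miR-107 (adjusted p = 0.12, 0.010 under the block). SREBF1 lay 1.21 lower with miR-107 in the same contrast (adjusted p = 0.094, 0.022 under the block), with arrays at 5.99, 4.17 and 4.99 against 5.51, 6.44 and 6.84. Between miR-107 and miR-107-mut2 no member was called (0.0362% of all genes were), and 1 had an unadjusted p under 0.05 (4%, beside 8.97% of all genes), INSIG1, higher by 1.21 with miR-107.

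SREBF2 and MSMO1 were both low in the IP after most RNAs without being called. SREBF2 read 6.96, 7.0 and 7.74 in the control IP, 5.20, 6.05 and 6.19 with miR-103, and 6.48, 5.23 and 5.65 with miR-107, with no overlap. The SREBF2 differences were -1.42 ± 0.52 with miR-103 (adjusted p = 0.17, limma) and -1.45 with miR-107 (adjusted p = 0.11), and the block called both (adjusted p = 0.017 and 0.0095). MSMO1 read 3.50, 3.51 and 4.90 in the control IP and 2.33, 2.86 and 2.48 with miR-103, a difference of -1.41 ± 0.38 with an adjusted p of 0.052. The block called MSMO1 lower with miR-103 (adjusted p = 0.0016), miR-107 (adjusted p = 0.017), miR-15b* (adjusted p = 0.019), miR-16 (adjusted p = 0.012) and miR-195 (adjusted p = 0.032), and NPC2 with miR-16 (adjusted p = 0.049), miR-195 (adjusted p = 0.042) and miR-15b* (adjusted p = 0.042). LSS was also called lower with miR-107 under the block (-0.99, adjusted p = 0.015). MSMO1 had a mean of 3.24 over the IP arrays, just above the 40th percentile of all genes.

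The change in the IP minus the change in the lysate was tested in 1 fit of all 54 arrays. With miR-103 and miR-107 it was called for 4 of 25 members (16%, beside 6.54% of all genes), all of them lower, beside 4.85% of all genes lower: NPC2 (-1.50 ± 0.32, adjusted p = 0.0019, limma), ABCA1 (-1.25, adjusted p = 4.5e-05), MSMO1 (-1.51, adjusted p = 0.019) and NPC1 (-1.17, adjusted p = 0.025). ABCA1 and NPC1 rose in the lysate without a called rise in the IP. ABCA1 lay between 2.81 and 3.58 on all IP arrays, its mean there of 3.09 was below the 40th percentile, and it passed the filter on low genes through its lysate values, so its term restates the lysate rise and shows no change in the IP. NPC2 was called lower in the IP in the main fit, a call that several settings ended as given above, and it was not called in the lysate. With miR-16 and miR-195 the term was called for 2 members (8%, beside 2.91% of all genes), both lower, beside 2.07%: MSMO1 (-1.45 ± 0.42, adjusted p = 0.046) and NPC2 (-1.24, adjusted p = 0.020). In the IP MSMO1 averaged 2.56 with miR-103, 3.02 with miR-107, 2.85 with miR-16 and 2.96 with miR-195. These means lay below the 40th percentile of 3.19, with 3.97 in the control, so the MSMO1 terms rest on IP values near the low end.

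Several of these interaction calls were fragile. The NPC1 term was lost under the block (adjusted p = 0.062) and without any of 5 arrays: the second or the third control lysate, the first miR-103 IP, or the first or the third control IP. The MSMO1 term with miR-103 and miR-107 was lost without the first control lysate or the third control IP (adjusted p up to 0.19), and that with miR-16 and miR-195 without any of 11 of 18 arrays and with the filter of the lowest 60% (adjusted p = 0.053). The NPC2 term with miR-16 and miR-195 was lost after cyclic loess (-0.79, adjusted p = 0.091) and without the second or the third control lysate or the first or the third control IP (adjusted p up to 0.081). The NPC2 term with miR-103 and miR-107 held on leaving out each of the 18 arrays in turn. INSIG1 (1.30 ± 0.57, adjusted p = 0.17) and DHCR7 (1.18 ± 0.49, adjusted p = 0.15) leaned the other way with miR-103 and miR-107 without a call. The block called INSIG1 (adjusted p = 0.039), and DHCR7 was called without the arrays that stand apart (adjusted p = 0.0057).

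In cells with the control RNA, the IP and the lysate were compared after cyclic loess of all 54 arrays. 14 of 25 members differed (56%, beside 75.9% of all genes), 2 higher (beside 38.7% of all genes) and 12 lower (beside 37.2%) in the IP. Of the 12 lower, HMGCS1, IDI1, SC5D, INSIG2 and ABCA1 had an IP mean below the 40th percentile of all genes and passed the filter only through their lysate values, so that a lower IP level was largely fixed by the filter: all 5 tested members of that kind were lower, as were 96.6% of all such genes. Among the 20 members above that level in the IP, 2 were higher (10%, beside 44.1% of all such genes) and 7 lower (35%, beside 29%). MSMO1, just above it, was 2.85 ± 0.29 lower (7.19-fold, adjusted p = 1.9e-11, limma). SQLE was 2.01 lower, NSDHL 1.58, DHCR7 1.24, NPC1 1.14, NPC2 0.68 and STARD4 0.64. The members higher in the IP were TM7SF2 (1.69 ± 0.17) and MVD (0.94 ± 0.26). SREBF1 (-0.01), SREBF2 (0.36), SCAP (0.25) and INSIG1 (0.25) were not called. As deposited, all 25 members were lower in the IP, which carries the offset between the fractions, and with joint quantile normalization STARD4 was no longer called (adjusted p = 0.067).

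Some members moved with the replicate number. In the lysates, INSIG1 and EBP were lowest in replicate 1 of all 9 transfections, by a mean of 0.66 and 0.47 below replicates 2 and 3, and FDPS in 8 of 9, by 0.31. Of the 25 tested members 3 were lowest in replicate 1 in at least 8 of 9 transfections, beside 2.6% of all genes. HMGCS1 was lowest there in 7 of 9, by a mean of 0.77, and IDI1 in 6 of 9, by 0.50. ABCA1 ran the other way, highest in replicate 1 in 8 of 9 transfections, by 0.26, as did 5.48% of all genes. In the IP the 3 members lowest in replicate 1 in at least 8 of 9 were HMGCS1, INSIG1 and FASN, beside 2.98% of all genes. The labels give same-numbered replicates a shared code without saying what it stands for, and its part in these values was not tested beyond the block.

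**Figure D4:**
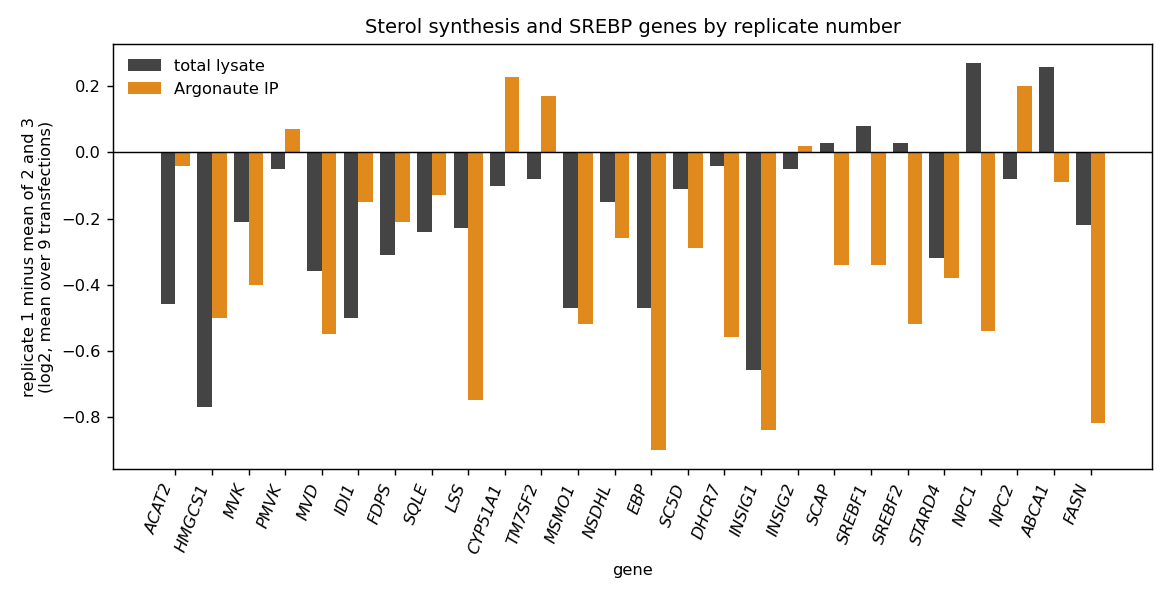
Mean over 9 transfections of the replicate 1 value minus the mean of replicates 2 and 3 (log2) for each measured member, in lysate (dark bars) and Argonaute IP (orange bars). In the lysate HMGCS1 (-0.77) and INSIG1 (-0.66) reach furthest below 0, and NPC1 (0.27) and ABCA1 (0.26) lie above it.

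Neighbouring branches of the pathway were described from gene lists of their own, and the genes named are those of each list called in the most lysate comparisons. Of 14 tested genes of the fatty acid arm of SREBP, ACLY, which makes the cytosolic acetyl-CoA that both arms use, was higher in the lysates with all 8 RNAs, by 0.68 to 0.86, again against the shared controls. Being called higher in all 8 comparisons held for 0.48% of all tested genes. In each lysate comparison 1 to 2 genes of that list were higher, beside 1.46% to 9.56% of all genes. In the other direction 0 to 3 were lower, beside 166 to 981 of all 11050 genes. The most calls came with miR-16, 2 higher, beside 9.56% of all genes, and 3 lower, beside 823 of 11050 genes. That made 1 to 5 of 14 in either direction, beside 2.96% to 17.2% of all genes, the 5 with miR-16, beside 17%. ME1, which supplies NADPH, fell by 1.40 with miR-16 (adjusted p = 0.0068, limma) and by 1.18 with miR-15b* (adjusted p = 0.040).

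Of 11 tested genes of SREBP processing and sterol-linked degradation, 1 to 3 were higher in each lysate comparison, beside 1.46% to 9.56% of all genes. In each, 0 to 1 were lower, beside 166 to 981 of 11050 genes, which made 2 to 3 in either direction, beside 2.96% to 17.2%. With miR-320 it was 1 higher and 1 lower, beside 1.46% of all genes higher and 2.96% in either direction. SPRING1, which the S1P protease needs to cleave SREBP, was higher with 7 RNAs, by 0.36 to 0.90, and at 0.36 it missed the threshold with miR-320 (adjusted p = 0.077). Being called higher in at least 5 of the 8 comparisons held for 3.95% of all tested genes, and being called lower in at least 5 for 4.35%. TMEM97, a binding partner of NPC1, was lower with 6 RNAs, from -0.83 with miR-107 to -0.38 with miR-320. Of 9 tested genes of the nonsterol isoprenoid branch, COQ2, which starts the ring chemistry of coenzyme Q, was lower with 5 RNAs: by 0.61 with miR-103, 0.65 with miR-107, 0.75 with miR-16, 0.78 with miR-195 and 0.53 with miR-107-mut2. PDSS1 of that branch was lower only with miR-320, by 0.45 (adjusted p = 0.018), and no gene of that list was called higher in the lysates, so that 0 to 1 of the 9 were called in each comparison, beside 2.96% to 17.2% of all genes.

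Of 16 tested genes of cholesterol uptake, storage and efflux, 0 to 3 were higher in the lysates, beside 1.46% to 9.56% of all genes, and 2 were lower with miR-107-mut1, beside 5.44%. NCEH1, a cholesteryl ester hydrolase, rose with miR-107-mut2 (0.75), miR-107 (0.71), miR-195 (0.62), miR-103 (0.55), miR-107-mut1 (0.49) and miR-16 (0.46). Of all tested genes, 3.95% were called higher in at least 5 of the 8 comparisons and 6.92% in at least 3. VLDLR, a lipoprotein receptor, rose with miR-107-mut1 (1.26, adjusted p = 0.023, limma), miR-107 (1.04, adjusted p = 0.045) and miR-103 (1.00, adjusted p = 0.0497). These 4 lists were written with earlier results of these data known, and their counts are a description.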

How the data were processed

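RNA of 2 fractions, total lysate and anti-Argonaute IP, was hybridised to 54 single-colour Human Gene 1.0 ST arrays. The deposited values are log2 intensities per probe set that the authors made by RMA; the submitters' processing notes name Affymetrix Expression Console 1.1. The log base is not stated and was read from the range of the values. Of 33297 probe sets, 19460 carried 1 gene symbol, 1754 several and 12083 none, and only those with 1 were used. The probe set with the highest mean stood for its gene (769 genes had several), which gave 18417 genes. The 40% with the lowest mean over all arrays were left out, which left 11050.

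Each fraction (27 arrays, 9 groups) was fitted with limma 3.58.1 in R 4.3.3, with moderated tests over all tested genes and Benjamini-Hochberg adjustment at 0.05. Interactions came from a fit of all 54 arrays, and the control IP was set against the control lysate after cyclic loess. The ± values are standard errors from these fits, n = 3 a group. The design calls replicates biological without describing them further, so p-values measure the spread between these samples, and 3 arrays a group limit the precision. The fit was tested on simulated data. No 2 arrays held the same values (highest correlation 0.9959).

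Same-numbered replicates share a code in the labels that is not explained. Their deviations correlated above 0.1 in 79 of 108 pairs in the lysates and 84 of 108 in the IP, so not in every pair. The mean correlation was 0.31 in the lysates and 0.27 in the IP, and over the members alone 0.44 and 0.31. Between arrays of unlike number it was -0.14 and -0.13. The main fit leaves this sharing out, so a member not called there can be called under the replicate block, which was kept as an alternative.

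The members and lists were chosen with earlier results of these data known. All members are accounted for by role. Values per array were given for members called in the IP, in 4 or more lysate comparisons or in a contrast of the seed groups, and for the largest changes. Of each other list at most 2 genes are named, those called in the most lysate comparisons, with ties broken by mean absolute change. The arrays that stand apart were picked after seeing the data, by their median correlation with other arrays.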

Additional observations from a re-analysis of the deposited data

Results flagged for a closer look

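In 6 cases the change in the IP differed from the change in the lysate by a test of that difference itself, the interaction term of the fit of all 54 arrays (limma, Benjamini-Hochberg adjustment). With miR-103 and miR-107 the difference, IP change minus lysate change, was -1.51 for MSMO1, -1.17 for NPC1, -1.50 for NPC2 and -1.26 for ABCA1. With miR-16 and miR-195 it was -1.45 for MSMO1 and -1.24 for NPC2. ABCA1 was near the lower end of the IP values on all arrays (mean 3.09, below the 40th percentile of 3.19), so its term restates its rise in the lysate and shows no change in the IP. MSMO1 was also below that level in the IP with each of these 4 RNAs, at means of 2.56 (miR-103), 3.02 (miR-107), 2.85 (miR-16) and 2.96 (miR-195). Its control IP mean was 3.97, so its terms rest on IP values near the low end. The adjusted p-values, and the arrays whose removal ends them, are given with the interactions above. Both sets of terms use the same 6 control arrays.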

How the results depend on the processing

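No called member value changed sign under any alternative run, and the causes of the changes below were not tested. Counts are members called of 25, each followed by the share of all tested genes called in the same fit, except where 1 array was left out in turn. Comparisons not named under a setting stayed within 1.5 times the reported count. The replicate number as a block gave 5 with miR-103 (25.6%), 7 with miR-107 (20.9%), 4 with miR-16 (23.9%), 2 with miR-15b* (13.7%), 6 with miR-107-mut2 (20.8%), 7 for miR-103 and miR-107 against miR-16 and miR-195, the seed groups (15.7%), and 8 for miR-107 against miR-107-mut1 (19.2%) in the lysates. In the IP the block gave 3 with miR-103 (7.69%), 4 with miR-107 (17.6%), 2 with miR-16 (5.3%), 2 with miR-195 (3.58%), 2 with miR-15b* (4.71%), 1 for the seed groups (0.923%) and 2 for miR-107 against miR-107-mut1 (18.2%). It ended 1 of 36 called values, the NPC1 interaction. In the lysates it also gave 6 with miR-195 (20.3%) and 6 with miR-107-mut1 (14.4%).

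Array quality weights, whose estimation stopped before its tolerance was met, gave 12 with miR-103 (50.6%), 15 with miR-107 (46.6%), 17 with miR-16 (66.8%), 13 with miR-195 (54%), 4 with miR-320 (21.4%), 13 with miR-15b* (47.4%), 12 with miR-107-mut1 (36.9%), 12 with miR-107-mut2 (46.7%), 10 for the seed groups (53.5%), 14 for miR-107 against miR-107-mut1 (39%) and 1 against miR-107-mut2 (2.03%) in the lysates. In the IP they gave 3 with miR-103 (11.4%), 2 with miR-107 (11%), 1 with miR-16 (6.53%), 1 with miR-195 (4.86%), 1 with miR-107-mut1 (6.29%), 1 for the seed groups (0.805%) and 2 for miR-107 against miR-107-mut1 (24.7%). For the interactions they gave 8 with miR-103 and miR-107 (26%) and 6 with miR-16 and miR-195 (24.5%). A fit of only the arrays compared gave 11 with miR-107 (27.3%), 6 with miR-107-mut2 (26.9%), 7 for miR-107 against miR-107-mut1 (21.3%) and 1 against miR-107-mut2 (0.0905%) in the lysates, and 3 with miR-103 (7.67%), 3 with miR-107 (12%) and 1 for the seed groups (0.38%) in the IP.

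Without the arrays that stand apart, an alternative added after seeing the data, the lysates gave 8 with miR-103 (24.1%), 7 with miR-107 (27.2%), 4 with miR-16 (21.1%), 2 with miR-320 (9.01%), 2 with miR-15b* (11.8%), 8 with miR-107-mut1 (19.2%), 6 with miR-107-mut2 (31.3%), 5 for the seed groups (16.3%), 7 for miR-107 against miR-107-mut1 (24.5%) and 1 against miR-107-mut2 (0.353%). The IP gave 2 with miR-103 (3.81%), 2 with miR-107 (8.95%), 1 for the seed groups (0.57%) and 1 for miR-107 against miR-107-mut1 (9.73%).

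Cyclic loess gave 2 with miR-103 (3.99%), 1 for the seed groups (0.923%), 1 for miR-107 against miR-107-mut1 (5.32%) and 1 against miR-107-mut2 (0.217%) in the IP, and 1 for the miR-16 and miR-195 interaction (3.6%). The filter of the lowest 60%, under which 20 members were tested and ABCA1 was not, gave 0 with miR-320 (4%), 0 with miR-15b* (9.24%) and 1 for miR-107 against miR-107-mut1 (16.2%) in the lysates, 2 with miR-103 in the IP (3.04%) and 1 for the miR-16 and miR-195 interaction (2.4%). The mean of 3 controls gave 4 with miR-16 in the lysate (18.3%), and in the IP 0 with miR-103 (3.57%) and 0 with miR-107 (8%). Of 36 called values, no filter ended 4, DHCR7 with miR-107-mut1, SREBF2 with miR-107-mut2, NPC1 between the seed groups and NPC2 with miR-107 in the IP, where 0 members were then called (2.2%). Trend and robust settings ended 2, NPC2 with miR-103 and with miR-107 in the IP, the latter count being 0 (3.36%). As deposited, 25 members differed between control IP and lysate (99.9%).

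Leaving out 1 array in turn gave, in the lysates, 3 to 3 with miR-103, 3 to 5 with miR-107, 2 to 3 with miR-16, 3 to 4 with miR-195, 0 to 1 with miR-320, 1 to 1 with miR-15b*, 3 to 5 with miR-107-mut1, 2 to 3 with miR-107-mut2, 2 to 4 for the seed groups, 1 to 3 for miR-107 against miR-107-mut1 and 0 to 0 against miR-107-mut2. In the IP it gave 0 to 2 with miR-103, 0 to 4 with miR-15b*, 0 to 1 for miR-107 against miR-107-mut1 and 0 to 0 in the other comparisons. It gave 2 to 4 and 0 to 2 for the interactions and 13 to 16 for control IP against lysate. Of 306 called values refitted this way, 71 lost the call. The shares of all genes called in these refits are not given here, so these counts cannot be set beside them.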
